A study of Mus musculus with 23 samples.

Results

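Saa3 and Serpina3n, the genes for an acute phase apolipoprotein and for an inhibitor of serine proteases, were followed in the prefrontal cortex of mice carrying newly injected tumour cells. The spots were taken by gene symbol from the platform's probe table. Each gene had 1 probe on every one of the 5 print layouts (GenBank entry NM_011315 for Saa3 and NM_009252 for Serpina3n), so that the 2 genes are 2 of the 8726 with a symbol of their own on these arrays.

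Male Balb/c mice, 8 weeks old, received 1000000 CT-26.WT cells subcutaneously in PBS, or PBS with no cells, and their prefrontal cortex was taken 18, 72 or 192 h later. CT-26.WT is a colon carcinoma line of the Balb/c strain, so the tumour grows in a host of matching strain. Both arms of every comparison are cortex, and the cells were injected under the skin, outside the brain. The labels do not say how many mice gave the RNA of a replicate. The p-values rest on the spread between replicates, pooled over the times and shared over probes, so a spread between mice cannot be read from them. Tumour and PBS RNA were labelled with different dyes (Cy3 or Cy5) and hybridised to the same array. Of 11 replicates on 23 arrays, 9 replicates on 16 arrays were used, with 3 replicates at 18 h, 2 at 72 h and 4 at 192 h. Poly(A) RNA was used for 192 h replicates 1 and 2, and total RNA for the other 7.

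The acute phase response is the change in secreted proteins that follows injury, infection or a tumour, driven by interleukin-1, interleukin-6 and tumour necrosis factor acting through NF-kB, STAT3 and C/EBP factors. Saa3 encodes serum amyloid A3, which unlike the liver forms Saa1 and Saa2 is made mainly outside the liver, for example by macrophages and fat cells, and which rises steeply with inflammatory stimuli. Serpina3n encodes a secreted serpin related to human alpha-1-antichymotrypsin, and in mouse brain it is widely used as a marker of reactive astrocytes. Both genes sit in families of closely related copies. Whether these probes also bind a related transcript was not tested.

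The 16 arrays used gave 1821 to 8638 usable spots of 10080 per scan, and each array was scanned into 3 files. The other 7 arrays were left out because their spot brightness did not follow that of arrays of other layouts for the same named probes (mean Spearman rho 0.0134 to 0.0578, against 0.205 to 0.516 for the arrays used). The array that gives 72 h replicate 3 for both genes had a mean rho of 0.206 with other layouts but of 0.0543 with arrays of its own layout, so its probe names are less well borne out. At 18 h the arrays of replicates 3 and 4 with tumour RNA in Cy3 were also low, at 0.205 and 0.220 with other layouts. With their own layout they had 0.172 and 0.216. On the 192 h replicate 3 array with tumour RNA in Cy3, the third scanner file followed the deposited scores of its array at r = 0.0395 and the other 2 files at 0.644 and 0.641. Without that file the array gave Saa3 at 0.09 in place of 0.07 and Serpina3n at 0.10 in place of 0.08. Probes for cortical neuron markers lay at a median brightness percentile of 63.7 (7 of 10 genes on the array, led by Snap25 at 98.0). Those for astrocyte markers lay at 81.5 (4 of 9 genes, 5 probes from 20.1 to 89.5). Medians were 68.6 for oligodendrocyte markers, 48.9 for choroid plexus and meninges, 33.2 for microglia and macrophages and 23.5 for the 1 endothelial probe. The median over all probes was 44.5, that of blood leukocyte markers 16.5, and no probe was present for the liver markers. Gfap, the defining astrocyte marker, had no probe of its own here. Which scanner channel held Cy3 was taken from the match of the scanner ratios with the authors' deposited scores and the labels. Were it the other way round, every direction below would turn.

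Both genes were measured close to the local background. Saa3 gave a ratio in 26 of 48 scans (12 of 16 arrays) and Serpina3n in 29 of 48 scans (also 12 of 16 arrays). A ratio needed signal in both channels after the local background had been subtracted. In the scans that gave one, the net Saa3 signal was 0.390 to 4.42 times its local background in the tumour channel (median 1.14) and 0.456 to 3.34 times in the PBS channel (median 1.11). For Serpina3n the corresponding values were 0.644 to 7.84 (median 1.25) and 0.765 to 3.99 (median 1.72). The net signal was smaller than the background under it in 22 of 52 Saa3 channel readings and in 12 of 58 Serpina3n readings. In brightness the Saa3 spot ranged from percentile 7.94 to 93.5 between arrays (median 52.6), and the Serpina3n spot from 9.73 to 97.9 (median 56.5). Repeat scans of 1 array differed by a median of 0.13 log2 units for Saa3 and 0.22 for Serpina3n, and by at most 0.54 and 0.51.

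At 18 h the loess-normalized Saa3 ratio was above 0 on 4 of the 5 arrays that gave one. On 2 of these 4, the Cy3 arrays of replicates 3 and 5, the net PBS signal was the larger one before normalization, with log2 ratios of -0.57 and -0.08 and of -0.83 to -0.74. In replicate 3 the array whose tumour sample carried Cy5 gave a log2 ratio of tumour over PBS of -0.26 and the Cy3 array 0.67, a replicate value of 0.21. In replicate 4 the ratio was 1.57 in Cy5 and 4.09 in Cy3, a replicate value of 2.83. In replicate 5 only the array with tumour RNA in Cy3 gave a ratio, 0.56, and no replicate value was formed. The replicates lie far apart, with replicate 4 above the rest, and the sign turned with the dye in replicate 3. Fitted over both replicates, Saa3 was 1.52 ± 0.49 (SE, n = 2) log2 units higher with tumour cells. It did not pass the threshold (limma's shared spread, Benjamini-Hochberg adjusted p = 0.759). The SE rests on a spread pooled over the 3 times and shared with other probes, whereas the 2 replicate values alone had an SD of 1.86.

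At 72 h Saa3 lay near 0 in both replicates. Replicate 3 gave -0.28 from 1 scan of 1 array, with tumour RNA in Cy5. Replicate 4 gave -0.08 in Cy5 and 0.19 in Cy3, a replicate value of 0.05. The fitted value was 0.05 ± 0.69 (SE, n = 2, adjusted p = 0.999). It equals the value of replicate 4, because the dye term of the fit takes up the ratio of replicate 3, the only replicate with a Saa3 value from 1 dye orientation. At 192 h replicate 3 gave 0.01 in Cy5 and 0.07 in Cy3, a replicate value of 0.04. Replicate 4 gave -0.25 and 0.07, a replicate value of -0.09. The fit gave -0.03 ± 0.49 (SE, n = 2, adjusted p = 0.999), with a 95% interval from -1.14 to 1.09.

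**Figure D1:**
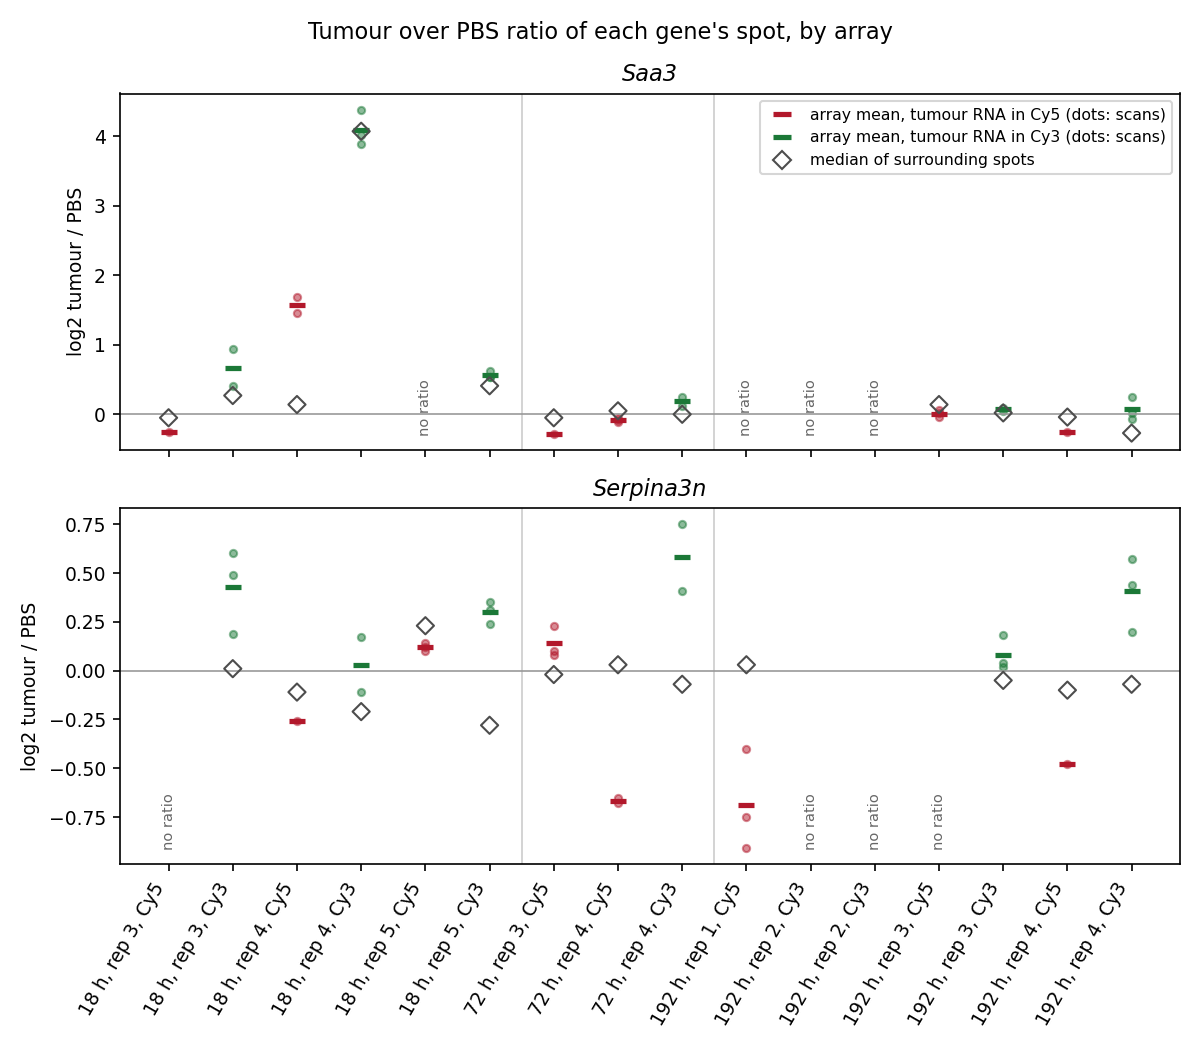
The log2 ratio of tumour over PBS is plotted for Saa3 (top) and Serpina3n (bottom) on each of the 16 arrays, labelled by time, replicate and the dye of the tumour RNA; dots are scans, bars are array means and open diamonds are the median ratio of the surrounding spots. The 18 h replicate 4 array with tumour RNA in Cy3 gives Saa3 at 4.09 beside surrounding spots with a median of 4.07. For Serpina3n the loess-normalized means of the Cy3 arrays all lie above 0.

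The Saa3 ratio of 4.09 came from a region of that array where the surrounding spots were also bright in Cy3. Net tumour signal at the Saa3 spot was 3888340, 3998523 and 3736204 in the 3 scans, against 89989, 109182 and 105037 in the PBS channel. The scanner's saturation factor for the spot was 0.964, 0.873 and 0.790. On the Cy5 array of the replicate it was 1.00 in the scans with a ratio. It was not used as a filter. The local background per pixel in the tumour channel was 13.3, 13.4 and 13.6 times the median of the array, at or above percentile 99.6 of all its spots. Of the 24 spots within 2 rows and columns, 22 were above the 90th percentile of the Cy3 signal in each scan. The usable ones among them (7, 14 and 10 in the 3 scans) all had ratios above 0. Their median ratio was 4.36, 4.14 and 3.70, beside 4.38, 3.88 and 4.02 for Saa3, and single spots ran from 1.29 to 5.40, 0.96 to 6.73 and 0.99 to 5.70. Of the 24, 16, 10 and 14 had no Cy5 signal and thus no ratio. On the other 11 arrays the median of the spots around Saa3 ranged from -0.27 to 0.41. The authors' deposited table holds no score for Saa3 on either array of replicate 4.

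The second array of replicate 4, with tumour RNA in Cy5, gave Saa3 at 1.57 while its surrounding spots had a median of 0.14. This value rests on 2 scans, at 1.46 and 1.68. In these the net PBS signal was 0.888 and 0.731 times its local background. The tumour background at the spot was 1.64 and 1.53 times the array median. Only 5 and 9 of the 24 surrounding spots were usable. In the remaining scan of that array the Saa3 spot had PBS signal (212493) and no tumour signal, as did 45.1% of all spots in that scan. With the loess fitted inside each sub-grid (a printed block of spots), the Cy3 array of replicate 4 fell to 0.39, the Cy5 array stood at 1.62 and the replicate value was 1.00. Replicate 3 was then 0.06, and the fitted 18 h value 0.53 ± 0.22 (SE, n = 2, adjusted p = 0.896). Without the Cy3 array, and with 1 orientation accepted so that replicate 5 entered, the fit gave 0.78 ± 0.21 (SE, n = 3, adjusted p = 0.975). Without replicate 4, which left replicate 3 alone, Saa3 at 18 h was 0.21 ± 0.22. Without replicate 3, which left replicate 4 alone, it was 2.83 ± 0.22. Both SEs assume that the 1 replicate left varies like the other groups.

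**Figure D2:**
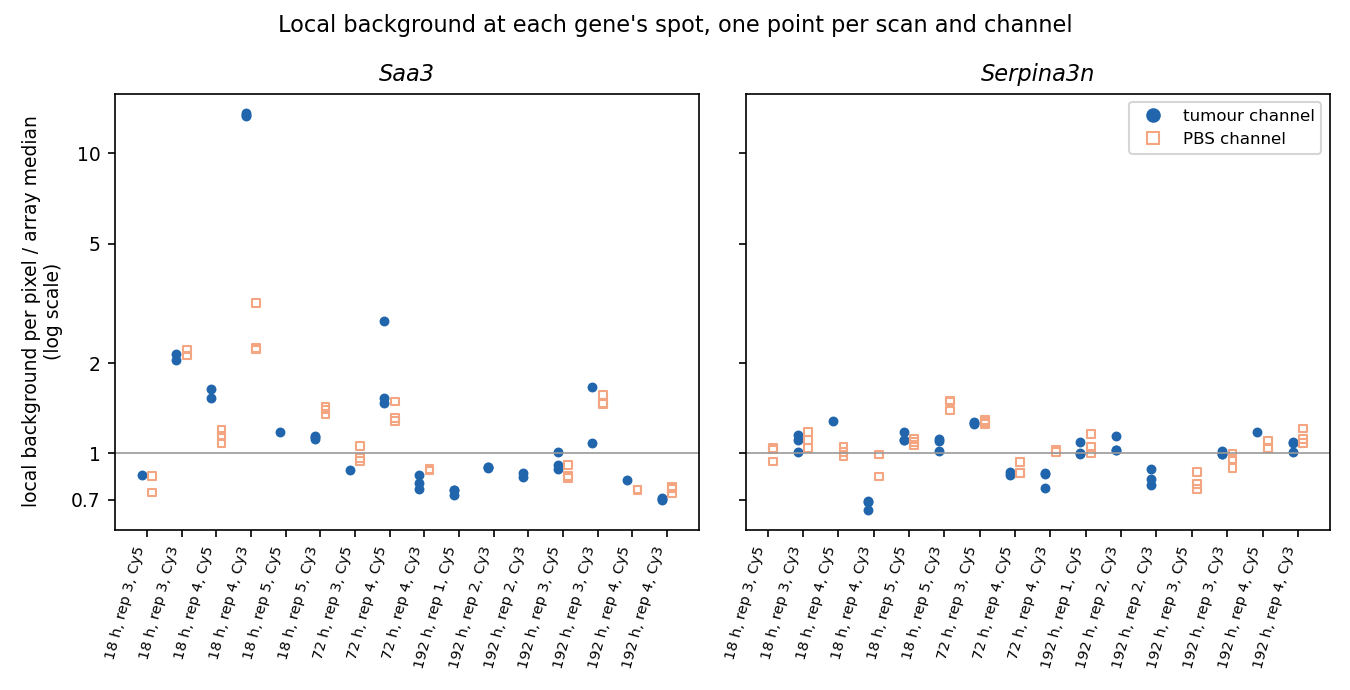
The local background per pixel at the spot of each gene is plotted as a multiple of the array median on a log axis, with 1 point for each scan and channel that had signal. The Saa3 spot on the 18 h replicate 4 array with tumour RNA in Cy3 stands at 13.3 to 13.6 in the tumour channel, and no other plotted point passes 3.18.

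Serpina3n stayed near 0 at 18 h. Replicate 4 gave -0.26 with tumour RNA in Cy5 and 0.03 with it in Cy3, a replicate value of -0.12. Replicate 5 gave 0.12 and 0.30, a replicate value of 0.21. In replicate 3 only the Cy3 array gave a ratio, 0.43. The replicate values lie on both sides of 0, and the fit gave 0.05 ± 0.19 (SE, n = 2, adjusted p = 0.990), with a 95% interval from -0.39 to 0.48. In replicate 5 Serpina3n was among the brighter spots of the Cy5 array, at percentile 90.9, with net tumour signal 7.38 to 7.84 times the background. The 3 scans of that array gave 0.10 to 0.14.

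At 72 h Serpina3n gave 0.14 in replicate 3, from an array where it stood at percentile 97.9 and its 3 scans read 0.08 to 0.23. Replicate 4 gave -0.67 in Cy5 and 0.58 in Cy3, which average to -0.04. The 2 arrays of replicate 4 thus show opposite directions for the same replicate. Without replicate 3 the fitted value was -0.04. The fitted value was 0.17 ± 0.23 (SE, n = 2, adjusted p = 0.999), above the replicate mean of 0.05, since the dye term also draws on the unswapped replicates.

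At 192 h Serpina3n was lowest in replicate 1, at -0.69 with scans from -0.91 to -0.40. Replicate 1 is poly(A) RNA on 1 array with tumour RNA in Cy5. Replicate 4 gave -0.48 in Cy5 and 0.41 in Cy3, a replicate value of -0.04. In replicate 3 the Cy3 array gave 0.08 and the Cy5 array no ratio. The fit gave -0.24 ± 0.23 (SE, n = 2, adjusted p = 0.999), with a 95% interval from -0.78 to 0.29. Without replicate 1 at 192 h the fitted value was -0.04, the value of replicate 4.

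The loess-normalized ratio of both genes moved with the dye. Serpina3n was above 0 on 6 of 6 arrays with tumour RNA in Cy3 (0.03 to 0.58, median 0.35) and on 2 of 6 arrays with tumour RNA in Cy5 (-0.69 to 0.14, median -0.37). Saa3 was likewise above 0 on 6 of 6 Cy3 arrays (0.07 to 4.09, median 0.38) and on 2 of 6 Cy5 arrays (-0.28 to 1.57, median -0.17). Before normalization Serpina3n was below 0 on the Cy3 arrays of 18 h replicates 3 (-0.66 to -0.24) and 5 (-1.04 to -0.91). The same held for 192 h replicate 4 (-0.61 to -0.13), and 192 h replicate 3 took both signs (-0.56 to 0.53). The Cy3 arrays of replicate 4 at 18 and 72 h stood above 0 before it too. Saa3 had these same signs before normalization on the Cy3 arrays. Within a replicate hybridised in both orientations, Serpina3n read higher in Cy3 in 4 of 4 swaps and Saa3 in 5 of 5. The dye part of a swap, the Cy3 ratio minus the Cy5 ratio divided by 2, averaged 0.32 for Serpina3n and 0.41 for Saa3 (median 0.29 and 0.16). Without 18 h replicate 4, which holds the array with the bright background, the Saa3 mean was 0.20 over 4 swaps and that of Serpina3n 0.39 over 3. Among the 1906 probes with 4 such swaps, 19.4% had the same direction in all of them, whichever dye read higher. The share higher in Cy3 in all of them was 8.60%, and the median size of the mean dye part was 0.09. Among the 1741 probes with 5 swaps, these shares were 13.1% and 3.91% and the median size also 0.09. At 72 and 192 h the dye part of Serpina3n in replicate 4 (0.62 and 0.44) exceeded the replicate value itself, which was -0.04 at both times.

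**Figure D3:**
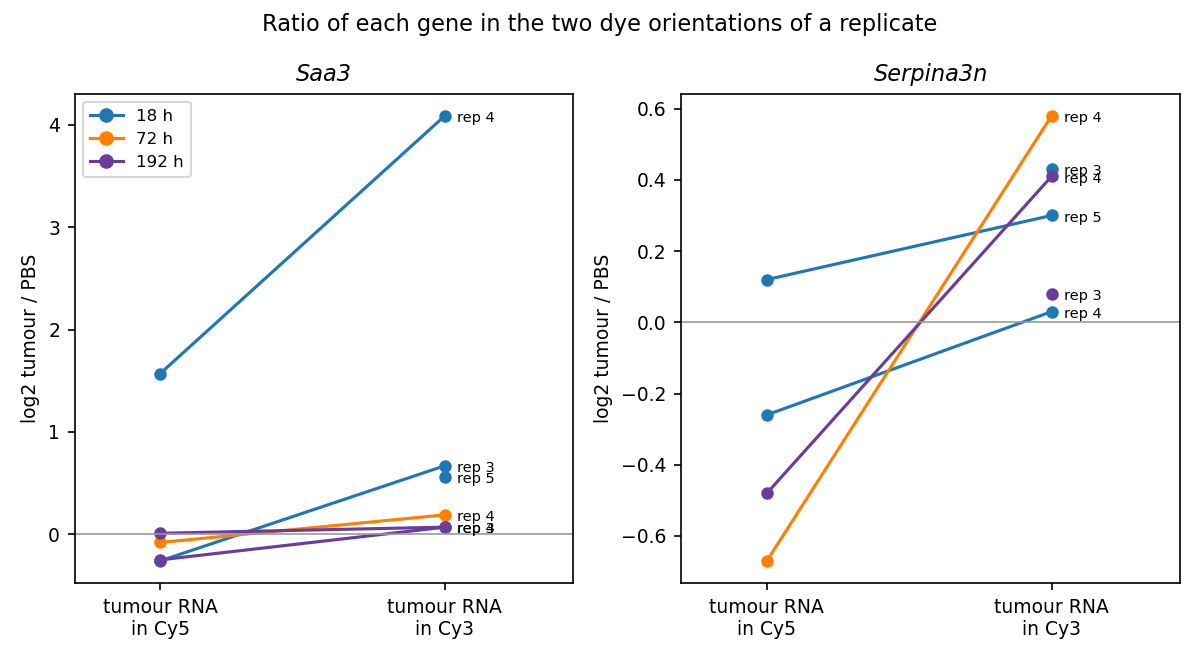
Lines join the log2 ratios of tumour over PBS from the Cy5 and the Cy3 orientation of each swapped replicate for Saa3 (left) and Serpina3n (right), coloured by time, and points with no line had a ratio in 1 orientation. Every line rises from left to right, and for Serpina3n the 72 h line runs from -0.67 to 0.58.

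Scans with signal in a single channel were counted by scan, and the scans of 1 array are repeats. A difference between the genes in these counts was not tested. All 19 such Serpina3n scans had signal in the Cy3 channel and none in Cy5, whichever sample Cy3 carried: 8 had tumour signal alone and 11 had PBS signal alone. Of 16 such Saa3 scans, 11 had Cy3 signal alone and 5 had Cy5 signal alone, out of 48 scans. Over all spots, a median of 22.0% per scan had Cy3 signal alone and 2.69% had Cy5 signal alone. These shares varied widely between scans, from 0.302% to 52.5% for Cy3 and from 0.0604% to 36.2% for Cy5. The Saa3 share with Cy3 alone is thus near that of all spots. At 192 h neither gene gave a ratio in replicate 2, on 2 arrays with tumour RNA in Cy3. There Serpina3n had tumour signal alone in 6 of 6 scans and Saa3 in 5 of 6, on arrays where 29.1% to 49.5% of all spots had tumour signal alone. In replicate 1 at 192 h, with tumour RNA in Cy5, Saa3 had tumour signal alone in 3 of 3 scans, beside 27.0% to 36.2% of all spots. No fold is given for these scans, since the PBS side has no measured value.

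Neither gene passed the adjusted threshold of 0.05 at any time. Over all probes with at least 2 replicates, 0 of 5733 (0%) passed at 18 h, 1 of 4440 (0.0225%) at 72 h and 1 of 6465 (0.0155%) at 192 h. By its limma p, Saa3 at 18 h ranked 101 among the 5733 probes, of which 342 (5.97%) had an unadjusted p under 0.05. At 72 and 192 h 65 (1.46%) and 240 (3.71%) were under it, and neither gene was among them. The median ratio over all probes was -0.02, -0.01 and 0.01 at the 3 times.

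The differences between times were tested in the same fit. Saa3 was 1.54 log2 units lower at 192 h than at 18 h by estimate (-1.54 ± 0.69, 95% interval -3.13 to 0.04), with an adjusted p of 0.981 in the limma fit, and the 72 h value differed from the 18 h value by -1.46 ± 0.84 (adjusted p = 0.998). Both differences contain the 18 h replicate 4 arrays described above. Without that replicate, which leaves replicate 3 alone at 18 h, the 192 h minus 18 h difference was -0.23 ± 0.27. The Saa3 difference between 192 and 72 h was -0.08 ± 0.84. For Serpina3n the 72 h minus 18 h difference was 0.12 ± 0.30, the 192 h minus 18 h difference -0.29 ± 0.30 and the 192 h minus 72 h difference -0.41 ± 0.27. Over all probes 0 of 3370 (0%), 1 of 4834 (0.0207%) and 1 of 4241 (0.0236%) passed for these 3 differences. The order of the levels over time was therefore not resolved for either gene.

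**Figure D4:**
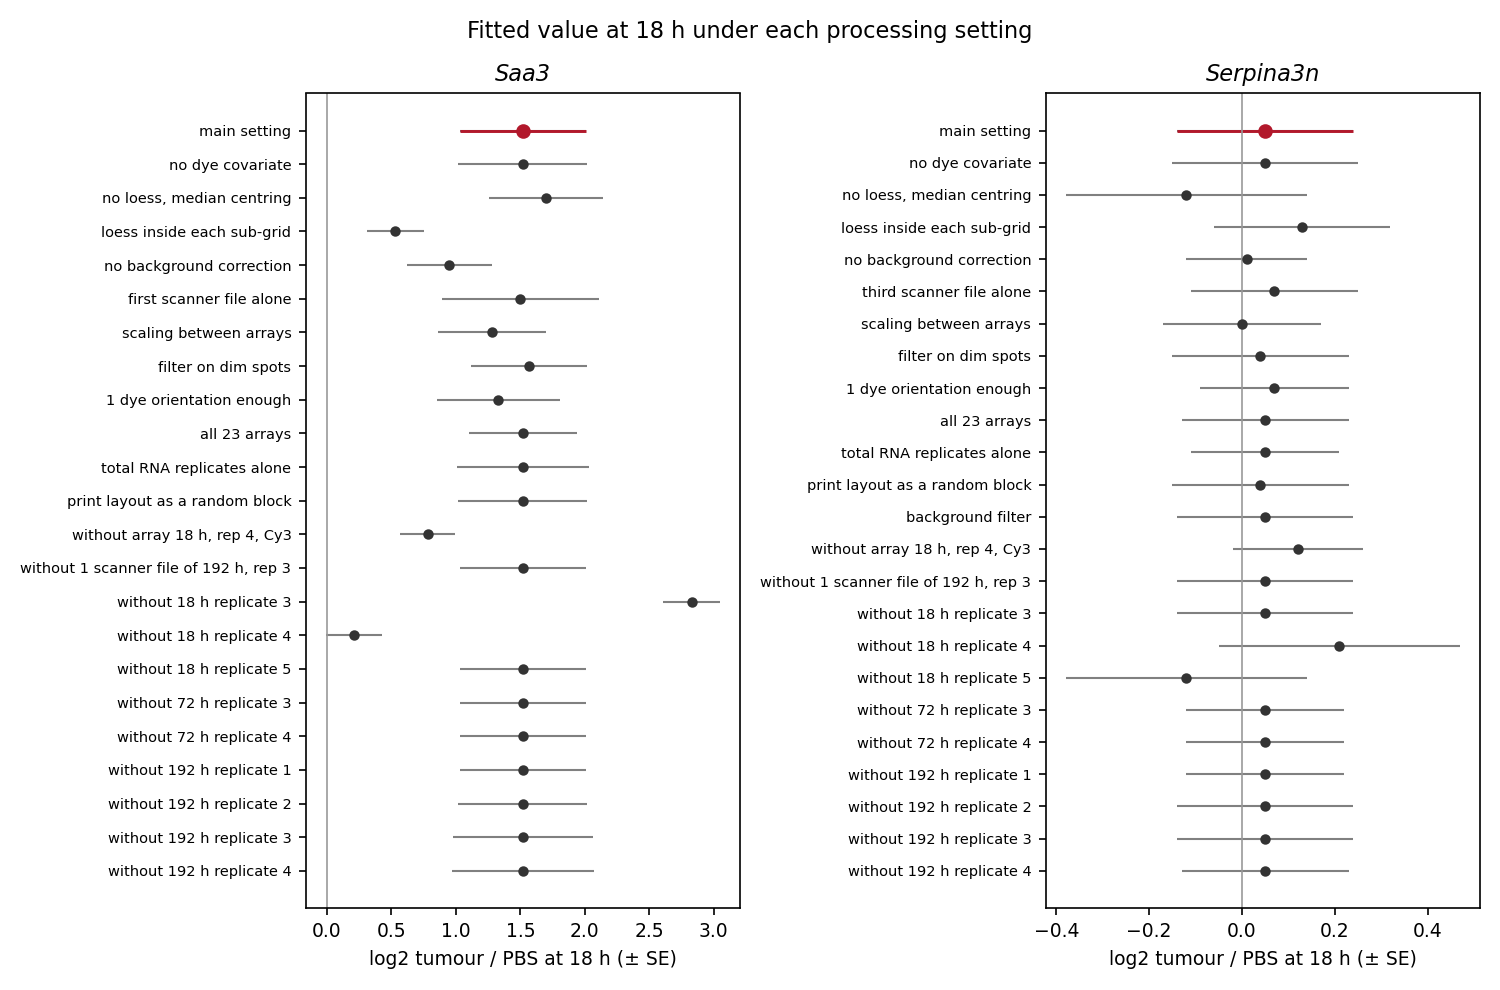
Fitted log2 ratios of tumour over PBS at 18 h (points, with SE as bars) are plotted for Saa3 (left) and Serpina3n (right) in the main setting (red) and under each other setting that gave a value. Saa3 spans 0.21 without replicate 4 to 2.83 without replicate 3, while Serpina3n stays between -0.12 and 0.21.

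The genes around the acute phase response were read from 6 lists. The arrays carried 57 of their 124 genes, and 33, 28 and 36 could be tested at 18, 72 and 192 h. None passed the adjusted threshold. An unadjusted p under 0.05 was found for 1 of 33 probes (3.03%), 0 of 28 and 3 of 37 (8.11%), beside 5.97%, 1.46% and 3.71% of all probes. Of the positive acute phase proteins, 14 of 30 were on the arrays. Their median ratio was -0.03 at 18 h (7 tested, 3 higher), -0.05 at 72 h (5 tested, 1 higher) and -0.08 at 192 h (8 tested, 3 higher). Means over replicates, without the dye term, had medians of -0.03, 0.03 and -0.02. Crp, the pentraxin C-reactive protein, stood at -0.38 ± 0.15 at 18 h (SE, n = 2, adjusted p = 0.798). Lcn2, the iron-binding protein lipocalin 2 and a co-member of the reactive astrocyte programme, was fitted at 0.18 ± 0.19 at 72 h, above both replicate values (0.13 and -0.01). Lbp, which carries bacterial lipopolysaccharide, stood at -0.36 ± 0.14 at 192 h (SE, n = 3, adjusted p = 0.999), below 0 in 3 of 3 replicates. Saa4, the constitutive serum amyloid A, stood at -0.24 ± 0.15 at 192 h.

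Of the negative acute phase proteins, whose plasma level falls in inflammation, Serpina6 (corticosteroid-binding globulin) and Ahsg (fetuin-A) were measured. Serpina6 stood at 0.34 ± 0.12 at 192 h (SE, n = 3, adjusted p = 0.999), above 0 in 3 of 3 replicates, and Ahsg at 0.19 ± 0.17.

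Of the inducing cytokines, their receptors and signalling genes, 16 of 29 were on the arrays, and the median ratio was -0.01, -0.06 and 0.04 at the 3 times. Il6ra, the interleukin-6 receptor subunit that binds the cytokine, stood at -0.33 ± 0.17 at 18 h and -0.23 ± 0.19 at 72 h. Cebpb, a C/EBP factor that binds acute phase promoters, was fitted at -0.24 ± 0.17 at 72 h, below both replicate values (0.20 and -0.20). Clcf1, a cytokine of the interleukin-6 family, was fitted at 0.89 ± 0.22 at 192 h (SE, n = 2, adjusted p = 0.999), but its replicate values were -0.39 and 0.89. The dye term took up the lower, unswapped one.

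The receptors of serum amyloid A and the proteases and serpins were covered more thinly, with 5 of 8 and 8 of 20 genes on the arrays. Fpr2, a formyl peptide receptor that binds serum amyloid A, stood at 0.32 ± 0.19 at 18 h with replicate values of -0.03, 0.97 and 0.01, the highest from replicate 4. Its fitted value was 0.40 ± 0.29 at 72 h and -0.21 ± 0.29 at 192 h. Klk6, a secreted serine protease of the brain, stood at 0.39 ± 0.18 at 18 h, again with its highest value (0.86) in replicate 4. That replicate holds the array with the bright Cy3 region, whose part in the Fpr2 and Klk6 values was not tested. Serpinb6a, an intracellular serpin, stood at 0.25 ± 0.12 at 192 h with 2 of 4 replicates above 0. At 72 h it was fitted at -0.26 ± 0.19, below both replicate values (0.02 and -0.11). Among the reactive astrocyte genes 12 of 29 were on the arrays, with a median fitted ratio of 0.02, 0.12 and -0.04 at the 3 times. The medians of their replicate means were 0.02, -0.02 and 0.05, so the sign at 72 and 192 h turned with the dye term. Timp1, an inhibitor of metalloproteinases, stood at 0.25 ± 0.23 and Fkbp5, a glucocorticoid-induced co-chaperone, at -0.20 ± 0.14 at 18 h. At 72 h Cxcl10, an interferon-induced chemokine, was fitted at 0.18 ± 0.25 from replicate values of -0.24 and 0.18. Slc10a6 of the same list was fitted at -0.32 ± 0.18 at 192 h, from replicate values of -1.16, 0.05 and 0.17.

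The likeness of other probes to each gene was described by Pearson's r over the 6 replicates in which that gene had a value. For Saa3, 1081 probes had values in the same replicates. The 5 most alike were Pip5k1a (r = 1.00), Coq5 (1.00), Slc20a1 (0.99), Gna12 (0.99) and Sdf4 (0.99). All peaked in 18 h replicate 4, at 1.05 to 2.74, and without the 2 replicates farthest from the Saa3 median r ran from -0.10 to 0.96 over 4 replicates. On the replicate 4 array with tumour RNA in Cy3, 3 of the 5 had a spot in the sub-grid of Saa3. Coq5 lay 1 row and 1 column away and gave 4.41 on that array, Sdf4 had a spot 4 rows away, and Gna12 lay 5 rows away at 5.30. Pip5k1a and Slc20a1 had spots 12 and 19 rows away in another sub-grid. The local Cy3 background at these spots was also high, at 9.86 and 6.61 times the array median. It was 7.69 times at Coq5 and 7.11 times at the near Sdf4 spot, and Gna12 had no value. The values of Pip5k1a and Sdf4 also average spots far from Saa3, at 71 and at 89 rows among others. The part of position on that array in these r values was not tested. For Serpina3n, among 1550 probes, the most alike were Lias (r = 1.00), Uimc1 (0.99), Ccdc151 (0.98), Zfand5 (0.96) and Fndc10 (0.96), with 0.69 to 0.98 over the 4 replicates left without the 2 farthest. With so few replicates 1.94% of all those probes had r over 0.9 with Serpina3n, and 3.42% with Saa3. The 2 genes shared 4 replicates, too few for a correlation. In these the values side by side were 2.83 for Saa3 and -0.12 for Serpina3n at 18 h (replicate 4), -0.28 and 0.14 at 72 h (replicate 3), 0.05 and -0.04 at 72 h (replicate 4), and -0.09 and -0.04 at 192 h (replicate 4).

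On the 7 arrays left out the probe names were not borne out, so their ratios are given without weight. The spot named Saa3 gave -0.71 to 0.13 on the 5 of them with a ratio, and the spot named Serpina3n gave -0.11 to 0.96 on 5. In the authors' deposited scores, a log ratio whose base is not given in the sources used here, Saa3 ranged from -0.18 to 0.21 on the arrays used. Serpina3n in 72 h replicate 4 stood there at -0.49 in Cy5 and 0.38 in Cy3, and in 192 h replicate 4 at -0.23 and 0.35, the same turn with the dye as in the scanner ratios.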

How the data were processed

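The authors deposited 3 scanner files per array with linear spot intensity in 2 channels, the local background already subtracted and given beside it, per the file headers. They also deposited a score for each spot, of log-ratio type, whose base, normalization and software are not given in the sources used here. Spots marked B, X, Y or Z in the files, or without signal in both channels, were dropped. Each scan's log2 ratio, computed here from the deposited intensities, was normalized by a global loess (span 0.3, 4 iterations), signed so that tumour stands over PBS, and averaged across scans, spots of a GenBank entry and arrays of a replicate. A dye-swapped replicate needed both orientations. A linear model with 3 time means and a dye term was fitted to each probe, the spread being shared over probes with limma 3.58.1 in R 4.3.3. P-values were adjusted over all probes by Benjamini-Hochberg, with a threshold of 0.05. The fit was tested on simulated data. Arrays were left out under a mean rho of 0.1, a limit chosen after the values were seen. Same-numbered replicates were not treated as pairs. Their deviations from the time means correlated at -0.12 to 0.01, which cannot exclude a shared batch with so few replicates. For arrays, the number of replicates limits the precision. Oligonucleotide sequences were not used here. The 2 genes, the gene lists and the tests were chosen with earlier results of these data known. Genes were named by rule: both genes with every replicate, the 2 genes of each list with the smallest p at each time (a selection of these is printed), and the 5 probes most like each gene. Alternatives covered the normalization, background, scans, dim spots, dye orientation, scores, arrays, RNA type, layout and each replicate. A background filter and the omission of 1 array and of 1 scanner file were added after seeing the data.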

Additional observations from a re-analysis of the deposited data

Results flagged for a closer look

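The local background at the Saa3 spot in the tumour channel at 18 h stood far from the other arrays, at 13.4 times the array median on the replicate 4 array with tumour RNA in Cy3 (mean of 3 scans). On that array the median ratio of the surrounding spots with a ratio was 4.07, beside 4.09 for Saa3, with single spots from 0.96 to 6.73, and the part of the background in the ratio was not tested beyond the sub-grid value given above. At 192 h the Saa3 background on the replicate 3 array with tumour RNA in Cy3 stood apart in both channels, at 1.38 times the array median for tumour and 1.5 times for PBS, while its ratio there was 0.07. The tumour value averages 1.08 and 1.67, and the latter comes from the third scanner file, which did not follow the deposited scores (r = 0.0395). For Serpina3n the PBS channel background stood apart at 18 h on the replicate 5 array with tumour RNA in Cy3, at 1.46 times the array median, with a ratio of 0.30. In all, 4 of 16 groups of arrays were picked out. Chance picks about 1 in 20 among independent groups, but the Saa3 picks at 192 h are both channels of the same spot. The count is therefore no test of an excess over chance. Arrays of 1 replicate share their RNA.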

How the results depend on the processing

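Of 260 values of the 2 genes under 27 other settings, 29 changed sign and 2 passed the adjusted threshold. For Saa3 at 18 h the settings other than left-out replicates gave 0.53 (sub-grid loess) to 1.70 (median centring). Without a replicate in turn it ran from 0.21 (18 h replicate 4 out) to 2.83 (18 h replicate 3 out, adjusted p = 0.00920), and the 192 minus 18 h difference from -2.86 (18 h replicate 3 out, adjusted p = 0.0299) to -0.23. The background filter and the deposited scores left Saa3 without an 18 h value, as did the second and the third scanner file alone. The cause of the changes of sign was not tested. Saa3 at 72 h was -0.11 without the dye covariate, -0.04 with sub-grid loess, -0.31 with 1 dye orientation enough and -0.28 without the 18 h replicate 4 Cy3 array. The Saa3 192 minus 72 h difference in those 4 settings was 0.09, 0.04, 0.29 and 0.26. With no background correction that difference was 0.04 and Saa3 at 192 h was 0.07. With the third scanner file alone Saa3 at 192 h was 0.03, Serpina3n at 72 h -0.13 and its 72 minus 18 h difference -0.21. Serpina3n was -0.12 at 18 h with median centring and 0.02 at 192 h with all 23 arrays. With total RNA replicates alone it was -0.04 at 72 h, and -0.09 in the 72 minus 18 h difference. Over left-out replicates Serpina3n ran from -0.12 to 0.21 at 18 h, -0.04 to 0.79 at 72 h and -0.87 to -0.04 at 192 h, and its differences from -0.09 to 0.75 (72 minus 18 h), -0.91 to -0.08 (192 minus 18 h) and -0.83 to 0.01 (192 minus 72 h). Saa3 at 192 h ran from -0.09 to 0.04. A left-out replicate that left 1 at a time assumes that it varies like the rest. The Serpina3n values of 0.79 and -0.87 come from leaving out replicate 4 at 72 h and at 192 h. Each then rests on 1 unswapped replicate, at 0.14 and -0.69, which the dye term shifted beyond its own value. The differences of 0.75, -0.91 and -0.83 come from the same fits. With the replicate number as a block, a pairing not used in the main fit, no Saa3 difference passed the threshold. The differences were -2.09 (72 minus 18 h), -1.54 (192 minus 18 h) and 0.54 (192 minus 72 h). Serpina3n had no estimable difference. Under that block 1, 0 and 1 probes passed for the 3 differences.

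Counts of probes past the threshold stayed between 0 and 10 in every setting (34 to 608 at an unadjusted p under 0.05 at 72 h, the widest range over the 3 times). For left-out replicates they ran from 0 to 7 at 18 h, 0 to 9 at 72 h, 0 to 1 at 192 h, and 0 to 10, 0 to 5 and 0 to 4 for the differences. At 72 h median centring and total RNA alone gave 7, all 23 arrays 3 and 1 orientation enough 2. For the 72 minus 18 h difference all 23 arrays gave 4, 1 orientation enough 2, and the third scanner file, the deposited scores and total RNA alone 1. For the 192 minus 72 h difference all 23 arrays gave 3, and 1 orientation enough and total RNA alone 2. The other counts that moved fell to 0, those without the third scanner file of the 192 h replicate 3 Cy3 array among them. Neither gene's change is bounded tightly in the main fit, where each gene had 2 replicates a time. With the background filter, which left Saa3 without an 18 h value, its SE was 0.22 at 72 h in place of 0.69. At 192 h it was 0.16 in place of 0.49. What sets the width of these bounds was not tested.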
